A study of Ovis aries with 6 samples.

Results

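The 10 genes described here encode the growth inhibitor myostatin (MSTN), its secreted antagonists follistatin (FST) and follistatin-like 3 (FSTL3), the type II activin receptors ACVR2A and ACVR2B, and the SMAD proteins SMAD2, SMAD3, SMAD4, SMAD6 and SMAD7. They were chosen by name. The symbols of 9 of them stood in the gene column of the count table, and SMAD7 was listed as LOC101111414, which carries the NCBI gene number of sheep SMAD7 in the RefSeq gene table (assembly ARS-UI_Ramb_v3.0). The gene table lists 23144 genes, of which 17668 had reads and 12506 passed the filter on low counts. All 10 genes passed that filter. The longissimus dorsi muscle of 3 sheep of the breed Qianhua Mutton Merino (QHMM) and of 3 Small Tail Han (STH) ewes was sequenced on an Ion Proton instrument, with 1 library per animal. All animals were females aged 1 year that were kept in the same environment. QHMM is a meat and wool sheep made by crossing South African Mutton Merino rams with Chinese Northeast Fine-wool ewes, and STH is a traditional local breed. No treatment is named in the labels, and the breeds were compared as whole genetic backgrounds, in 1 muscle and at 1 age.

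Myostatin is a protein of the TGF-β family that muscle fibres secrete and that limits muscle growth, and animals that lack it are heavily muscled. It binds a type II activin receptor, which recruits a type I receptor such as ACVR1B, and the pair phosphorylates SMAD2 and SMAD3. These join the common partner SMAD4 and enter the nucleus to change transcription. Follistatin and FSTL3 capture the ligand outside the cell. Inside the cell SMAD7 blocks the activin and TGF-β branch as well as the branch of the bone morphogenetic proteins (BMPs), and SMAD6 acts mainly on the BMP branch.

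The library totals ran from 10982191 to 14334544 reads on genes. Values per library are given as counts normalized by edgeR's TMM method and scaled to the median library total, and levels of different genes as RPKM, the read count scaled by gene length and library total. In a principal component analysis the breeds separated on the first component (44.1% of the variance), while QHMM replicate 2 and STH replicate 3 stood apart from the other libraries on the second (19.1%). All 6 skeletal muscle markers had reads, with summed levels of 91578 to 106218 RPKM in QHMM and 67593 to 111878 RPKM in STH. The 8 slow fibre markers summed to 16291 to 23548 RPKM in QHMM and 7227 to 11038 RPKM in STH. The fast fibre markers overlapped between the breeds, at 54775 to 75068 and 48487 to 65073 RPKM, with TNNT3 listed at 0 in every library. The 7 fibroblast markers summed to 378 to 751 RPKM in QHMM and 184 to 440 RPKM in STH, and the 5 adipocyte markers to 59.2 to 276 and 40.3 to 129 RPKM. Although these adipocyte sums overlapped, 4 of the 5 markers were called lower in STH without overlap, with a median log2 fold change of -2.37 over the 5, where 1.83% of all genes tested were called lower. The breeds overlapped in the summed levels of endothelial markers (119 to 195 RPKM over all libraries), smooth muscle and pericyte markers (131 to 350 RPKM) and leukocyte and blood markers (16.6 to 40.3 RPKM). In bulk muscle, fewer cells of a type and less RNA per cell cannot be told apart, and the part of these markers in the results below was not tested.

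Whether the myostatin pathway differs between a breed selected for meat and a local breed was asked by comparing STH with QHMM. SMAD3 was the gene that differed most. Each STH library was below each QHMM library, with a mean normalized count of 162 ± 63.7 against 316 ± 16.0 (SD, n = 3 each), although the difference missed the threshold. For the other 9 genes, MSTN included, the breeds overlapped. A gene was called when its FDR in edgeR's quasi-likelihood test, adjusted over the 12506 genes, was below 0.05 and its fold change was above 1.5. By this rule 0 of the 10 genes were called, against 3.45% of all genes tested. At an unadjusted p below 0.05 there was 1 gene, SMAD3, where 19.2% of all genes passed. The breeds did not overlap in the same 1 of 10 genes, where 24.7% of all genes did not overlap in either direction and 11.7% were lower in STH. DESeq2 called SMAD3 alone of the 10, and 7.78% of all genes. The log2 fold changes of the 10 genes were negative in 6 and positive in 4, with a median of -0.36 against 0.02 over all genes tested.

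**Figure D1:**
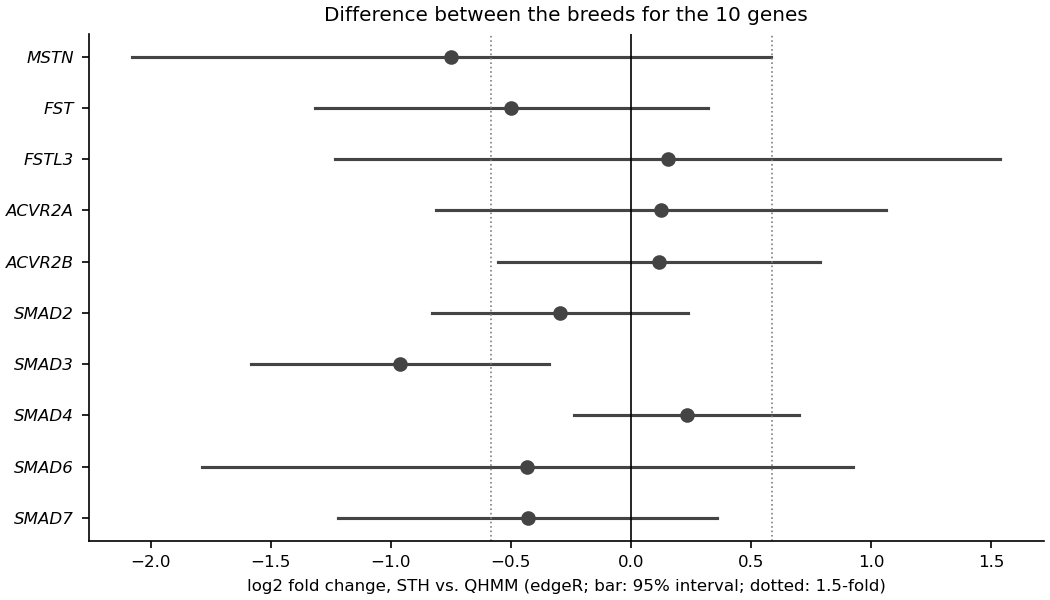
The log2 fold change of each gene, STH vs. QHMM, is plotted on the x axis as a point with its 95% interval from edgeR, and dotted lines mark a 1.5-fold change. The interval of SMAD3 (-1.58 to -0.34) lies wholly below 0, and those of the other 9 genes include 0.

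MSTN, the ligand, varied more between animals of a breed than between the breeds. In QHMM its normalized counts were 117 (replicate 1), 28.3 (replicate 2) and 201 (replicate 3), and in STH they were 68.3, 109 and 29.4 in the same order. The lowest animals of the breeds were nearly equal, and the highest 2 were QHMM replicates 3 and 1. The ratio of the highest to the lowest animal was 7.08 in QHMM and 3.70 in STH. The means were 115 ± 86.2 and 68.8 ± 39.7 (SD, n = 3 each), a log2 fold change of -0.75 (SE 0.60, edgeR FDR = 0.547). The 95% interval of that change ran from -2.08 to 0.58, which holds an equal level as well as a level 1.5-fold lower in STH. The SD within a breed of log2 CPM, a read count scaled to the library total, was 1.19 for MSTN, above that of 98.6% of the genes tested, whose median was 0.35. Without QHMM replicate 3 the log2 fold change of MSTN was -0.09, and without STH replicate 2 it was -1.25. MSTN overlaps PMS1, a mismatch repair gene on the other strand, in the RefSeq annotation. PMS1 had 29.5 to 71.1 normalized counts over the 6 libraries, and whether the counting used strand is not given in the sources used here.

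FST, which binds myostatin and activins tightly, had normalized counts of 282, 94.4 and 164 in QHMM and 149.8, 138 and 94.9 in STH. As with MSTN, QHMM replicate 2 and STH replicate 3 were the lowest libraries of their breeds, and they were nearly equal. The means of 180.0 ± 94.7 and 128 ± 28.9 (SD, n = 3 each) gave a log2 fold change of -0.50 (SE 0.37, edgeR FDR = 0.510). FSTL3, a shorter relative of follistatin, was measured on few reads. Its counts before normalization were between 3 and 23 per library. The QHMM animals had 20.7, 3.54 and 11.3 normalized counts and the STH animals 15.8, 6.47 and 18.1, so that the QHMM range enclosed the STH range. The log2 fold change was 0.15 with a 95% interval of -1.23 to 1.54 (edgeR FDR = 0.926), which holds a 2-fold difference in either direction.

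The receptors ACVR2A and ACVR2B differed little between the breed means. ACVR2A, which serves activins as well as myostatin, had normalized counts of 56.7, 23.6 and 71.7 in QHMM and 67.4, 64.7 and 33.9 in STH. Its lowest animals were again QHMM replicate 2 and STH replicate 3, and the log2 fold change was 0.12 (SE 0.42, edgeR FDR = 0.908). ACVR2B, the receptor with the higher affinity for myostatin, had 96.4, 133 and 82.9 in QHMM and 129, 75.4 and 133 in STH. Here QHMM replicate 2 and STH replicate 3 were the highest of their breeds. The log2 fold change of ACVR2B was 0.12 (SE 0.30, edgeR FDR = 0.879), with a 95% interval of -0.55 to 0.78.

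SMAD2 and SMAD3 carry the signal from the receptors, and SMAD3 binds DNA directly. In the QHMM animals SMAD3 stood at 313, 302 and 334 normalized counts, and in the STH animals at 236, 126 and 124. The QHMM animals were within 1.11-fold of each other, whereas STH replicate 1 lay between the QHMM animals and the other STH animals. The log2 fold change was -0.96 (SE 0.28, 95% interval -1.58 to -0.34), and with an edgeR FDR of 0.0904 it was not called. It was called in 3 of 18 alternatives, with DESeq2 (FDR = 0.0303), with no filter on low counts (edgeR FDR = 0.0498, where 4.56% of all genes were called) and without STH replicate 1 (log2 fold change -1.35, edgeR FDR = 0.0195, 4.21%). Over all 18 the log2 fold change lay between -1.35 and -0.80 and the FDR between 0.0195 and 0.314. The paper, which used EBSeq at the same thresholds, lists SMAD3 among its genes down-regulated in STH. It also reports SMAD3 as lower in STH by real-time PCR, without naming it among the significant differences of that assay. The slow fibre markers also differed, with 8 of 8 lower in STH without overlap (11.7% of all genes) and 5 of them called, as did the adipocyte markers, with 4 of 5 called lower. The part of fibre or fat makeup in the SMAD3 difference was not tested. SMAD3 overlaps AAGAB on the other strand in the RefSeq annotation. AAGAB, at 30.6 to 63.3 normalized counts, had a log2 fold change of 0.50. SMAD2, the closest relative of SMAD3, had 233, 197 and 196 in QHMM and 178, 131 and 200.002 in STH. The breeds overlapped through STH replicate 3, and the log2 fold change was -0.30 (SE 0.24, edgeR FDR = 0.550).

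SMAD4, the partner shared by all branches of the pathway, was the steadiest of the 10 genes. The QHMM animals had 431, 353 and 359 normalized counts and the STH animals 398, 525 and 420, with an SD of log2 CPM within a breed of 0.19, below the median of all genes tested. The log2 fold change was 0.23 with a 95% interval of -0.24 to 0.70 (edgeR FDR = 0.601). A change of more than 1.62-fold upward or a level under 0.849 of that in QHMM was outside this interval.

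**Figure D2:**
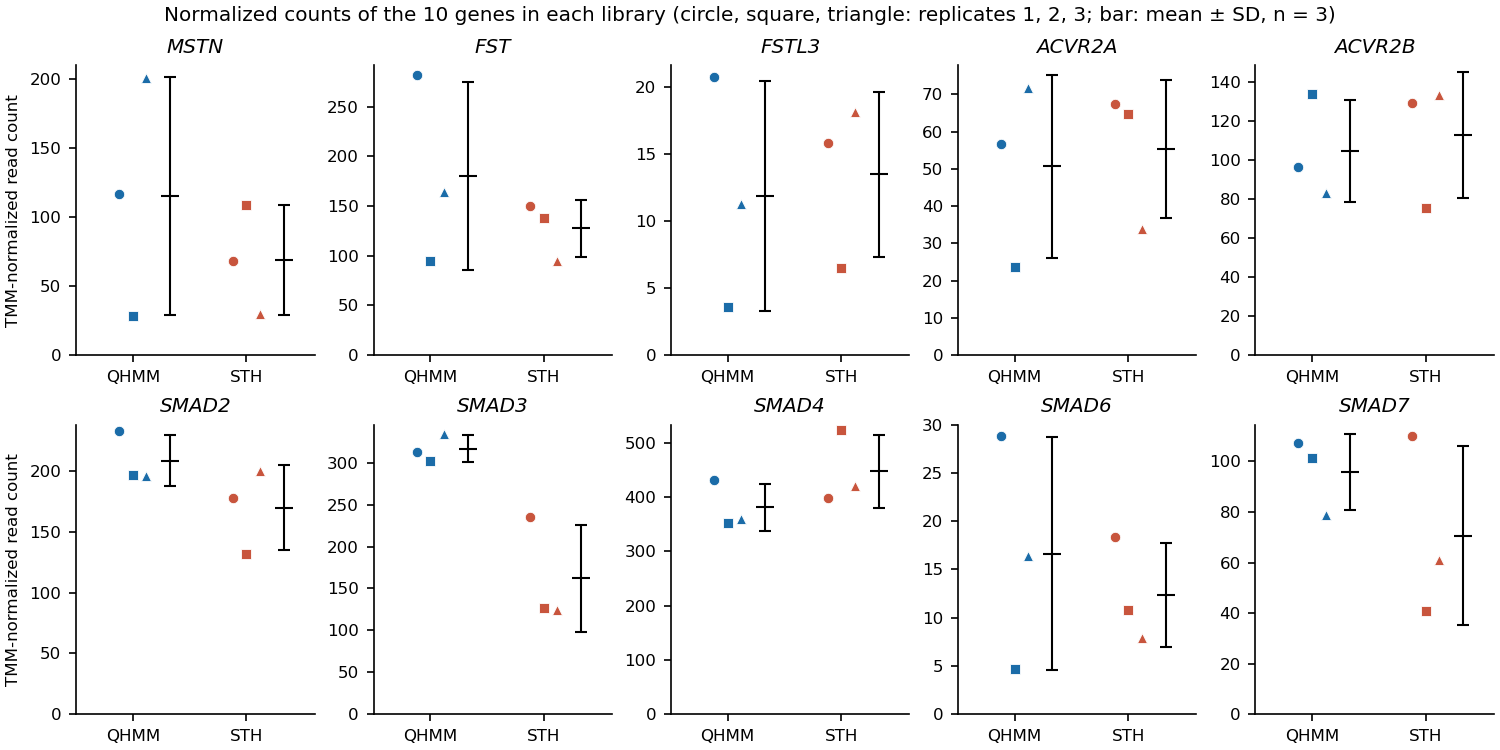
Each panel shows 1 gene, with its TMM-normalized read count on the y axis, which starts at 0, and the breeds on the x axis. Circles, squares and triangles are replicates 1, 2 and 3, and bars are the mean ± SD of 3 animals. The STH points of SMAD3 all lie below the QHMM points, and in the other 9 panels the breeds overlap.

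The breeds overlapped in both inhibitory SMADs, and the spread between animals was wide. SMAD7 had normalized counts of 107, 102 and 78.8 in QHMM and 110, 41.0 and 61.0 in STH. STH replicate 1 was the highest of all 6 libraries, while the other STH animals were below every QHMM animal, and the log2 fold change was -0.43 (SE 0.36, edgeR FDR = 0.561). SMAD6, with raw counts between 4 and 32, had 28.8, 4.72 and 16.4 in QHMM and 18.3, 10.8 and 7.91 in STH. Between the breeds SMAD6 had a log2 fold change of -0.43 with a 95% interval of -1.79 to 0.92 (edgeR FDR = 0.752). The ratio of the highest to the lowest QHMM animal was 6.10 in SMAD6 and 1.36 in SMAD7.

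Part of the variation of the 10 genes across the animals did not follow the breeds. In MSTN, FST, ACVR2A, SMAD3 and SMAD6 the libraries that stood apart on the second component, QHMM replicate 2 and STH replicate 3, were each the lowest of their breed. These were 5 of the 10 genes, against 18.5% of all genes tested, and the pattern was picked out after the values had been seen. SMAD3 did not overlap between the breeds. Its values in these 2 libraries were lowest by little, at 302 against 313 in QHMM and 124 against 126 in STH. On the scale of log2 CPM minus the mean of the 6 libraries, MSTN stood at -1.31 and -1.26 in these libraries, SMAD6 at -1.12 and -0.56, and FST at -0.59 and -0.58. In RPKM, the summed slow fibre (16291 and 7227) and adipocyte markers (59.2 and 40.3) were the lowest of each breed in the same 2 libraries. So were the endothelial (120.4 and 119) and leukocyte markers (16.6 and 19.5), and the skeletal muscle markers (106218 and 111878) were the highest. The other sums did not follow. Fibroblast markers were lowest in STH replicate 2 (184 RPKM) and smooth muscle and pericyte markers in QHMM replicate 3 (131 RPKM). Fast fibre markers were lowest in QHMM replicate 1 (54775 RPKM) and STH replicate 1 (48487 RPKM). The TMM factors of the 2 libraries were the lowest of all (0.852 and 0.853). RPKM leaves these factors out, which places the 2 libraries lower than TMM-normalized counts do, so the rank of a sum can depend on the scale. The part of the markers and of the scaling in this pattern was not tested. FSTL3 was low in QHMM replicate 2 (-1.24) but high in STH replicate 3 (0.62). With both libraries left out, 4 of the 10 genes did not overlap between the breeds (MSTN, FST, SMAD2 and SMAD3), all lower in STH, where 48.8% of all genes did not overlap and 23.5% were lower in STH. In that fit 0 of the 10 were called, and the log2 fold changes were -0.86 for MSTN (edgeR FDR = 0.357), -0.64 for FST (FDR = 0.417), -0.48 for SMAD2 (FDR = 0.487) and -0.85 for SMAD3 (FDR = 0.314).

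**Figure D3:**
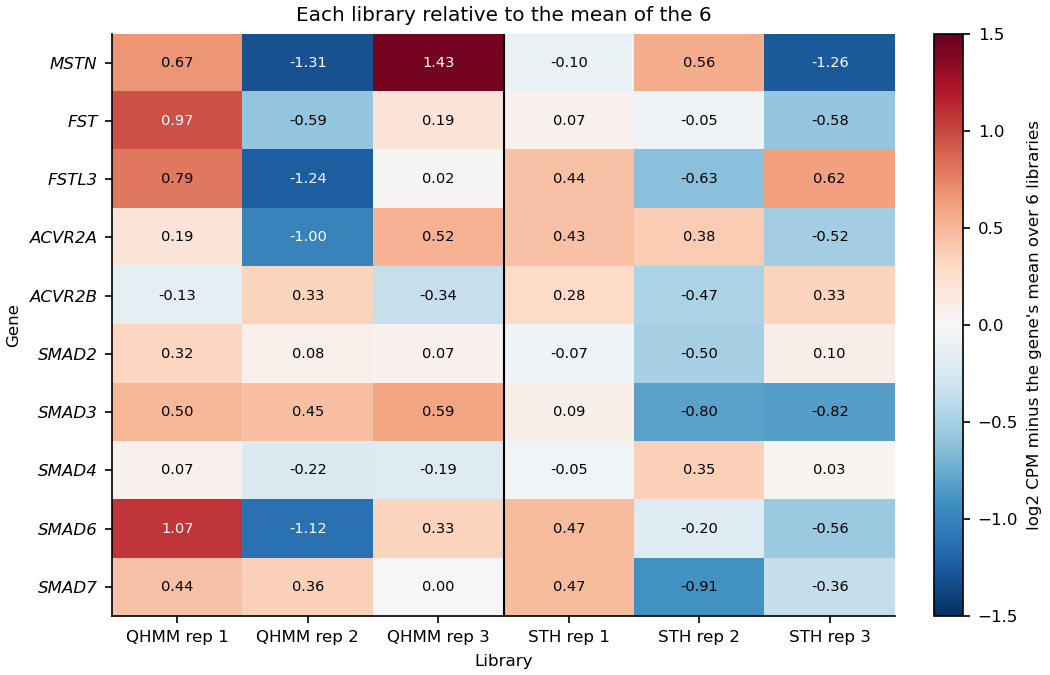
Rows are the 10 genes, columns the 6 libraries, and each cell gives log2 CPM minus the mean of the gene over the 6 libraries, in red above and blue below 0. MSTN is lowest in QHMM replicate 2 (-1.31) and STH replicate 3 (-1.26). SMAD3 is above 0 in all QHMM libraries and in STH replicate 1 (0.09), and falls to -0.82 in STH replicate 3.

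Per gene length, SMAD4 had the highest level and SMAD6 the lowest. The geometric mean of RPKM over the 6 libraries was 18.7 for SMAD4, 10.6 for FST, 8.86 for SMAD3, 6.94 for SMAD2 and 4.92 for MSTN. It was 4.39 for SMAD7, 4.26 for ACVR2B, 2.44 for ACVR2A, 1.23 for FSTL3 and 0.313 for SMAD6. SMAD4 thus stood above 85.1% and SMAD6 above 26.8% of the genes with reads. MSTN itself ranged from 1.64 to 14.0 RPKM, at 8.04, 1.64 and 14.0 in QHMM and 5.55, 8.15 and 1.70 in STH, so it stood above SMAD3 in QHMM replicate 3 (13.8 RPKM) and under FSTL3 in STH replicate 3 (1.77 RPKM). Of the 9 pairs of neighbours in this order, FSTL3 and SMAD6 kept their order in 6 of 6 libraries, with a mean log2 ratio of 1.98 (SD 0.70). The p of this pair, 0.03125, was the smallest that the exact two-sided sign-flip permutation test can give with 6 libraries, and it becomes 0.281 after adjustment over the 9 pairs, so no pair in order in every library could pass alone. The other 8 pairs were reversed in 1 to 3 of the 6 libraries. The length behind RPKM, recovered from the counts, was between 666 bases (FSTL3) and 3011 bases (SMAD6). It was a multiple of 3, as a coding sequence is, in 6 of 10 genes (MSTN, FST, FSTL3, ACVR2A, ACVR2B and SMAD7). In SMAD2, SMAD3, SMAD4 and SMAD6 it was not a multiple of 3, so these lengths may not have the same basis in every gene. Whether they include untranslated regions is not given in the sources used here. The order by RPKM depends on these lengths.

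**Figure D4:**
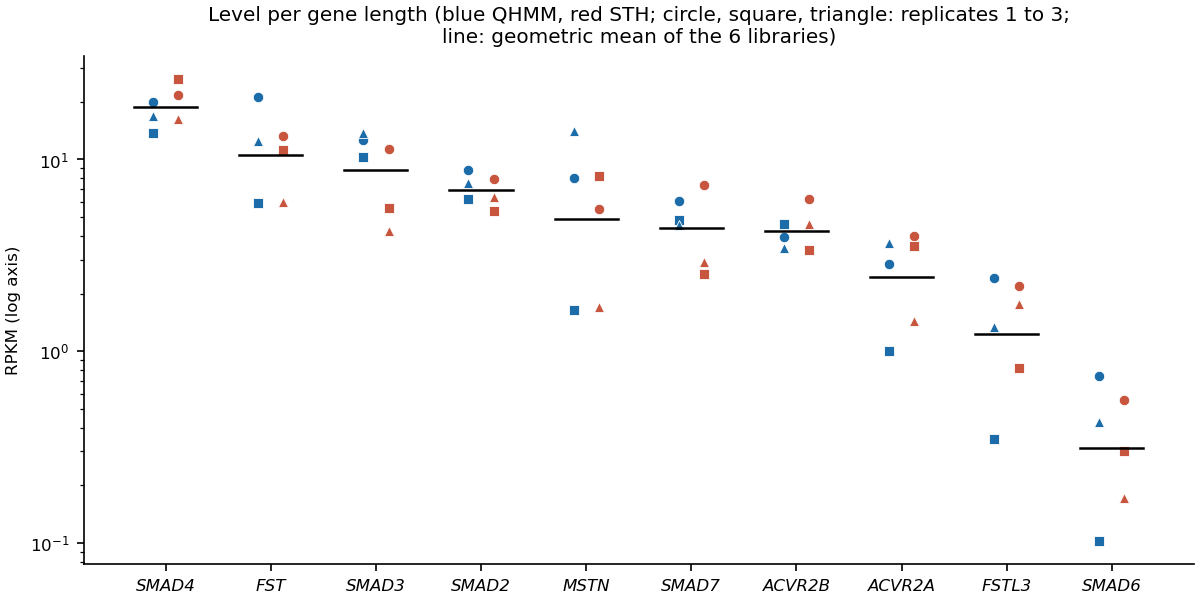
The y axis gives RPKM on a log scale and the x axis the 10 genes in the order of their geometric mean (line), with QHMM libraries in blue and STH libraries in red. Levels run from 18.7 RPKM for SMAD4 to 0.313 for SMAD6, and the points of MSTN spread from 1.64 to 14.0.

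Ratios within a library do not depend on how libraries are scaled, and 7 were compared between the breeds. The ratio of SMAD3 to SMAD2 in RPKM was 1.45, 1.65 and 1.84 in QHMM and 1.42, 1.03 and 0.669 in STH. It was the single ratio whose breeds did not overlap, although QHMM replicate 1 and STH replicate 1 were nearly equal. The difference of the mean log2 ratios was -0.72, with p = 0.1 in the exact two-sided permutation test, the smallest that 3 against 3 animals can give, and an adjusted p of 0.7 over the 7 ratios. The ratio of ligand to inhibitor, MSTN to FST, was 0.381, 0.275 and 1.12 in QHMM and 0.418, 0.724 and 0.284 in STH (exact permutation p = 0.9). Its spread within QHMM covered the whole STH range. The ratio of SMAD7 to SMAD3, the blocker to the signal carrier, was 0.476, 0.468 and 0.329 in QHMM and 0.650, 0.452 and 0.684 in STH (exact permutation p = 0.3, adjusted p = 0.7). ACVR2A to ACVR2B ran from 0.218 to 1.06 in QHMM and from 0.313 to 1.06 in STH (exact permutation p = 1). FSTL3 to FST ran from 0.0583 to 0.114 and from 0.0728 to 0.296 (exact permutation p = 0.4), and SMAD7 to SMAD6 from 8.17 to 47.2 and from 8.35 to 16.9 (exact permutation p = 0.9). After adjustment over the 7 ratios, p was 0.7 or 1 for each of them.

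The genes whose pattern over the 6 libraries was closest to a member were found by the root-mean-square difference of log2 CPM, each gene centred on its own mean. Closest to MSTN were DTWD1 (0.345), ENTPD5 (0.345), FAM124B (0.354), SCIN (0.387) and LOC100125614 (0.397). These 5 genes were also lowest in QHMM replicate 2 and STH replicate 3 of their breeds, which follows from how they were chosen. Their edgeR FDR was between 0.399 and 0.984. DTWD1, ENTPD5, FAM124B and LOC100125614 had few reads, at 2.36 to 34.8 normalized counts. Among the other members ACVR2A was the most like MSTN, in place 63 of all genes tested, followed by SMAD6 in place 222 and FST in place 299. Closest to SMAD3, at much smaller differences, were ANK2 (0.0778), a membrane adaptor of the ankyrin family, the calcium channel subunit ORAI3 (0.0868), the chromatin regulator JARID2 (0.104), the kinase FAM20B (0.109) and the laminin chain LAMA3 (0.121). Of these, JARID2 had 185, 157 and 165 normalized counts in QHMM and 109, 63.6 and 63.3 in STH, and none of the 5 was called. Their lower values in STH likewise follow from how they were chosen. The member most like SMAD3 was SMAD7, in place 435.

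Of the other genes of the pathway, 83 in 8 lists were found in the table and 68 were tested. Of these, 2 were called higher and 1 lower in STH, against 1.62% and 1.83% of all genes, and 15 had an unadjusted p below 0.05 (5 higher, 10 lower), where 19.2% of all genes passed. Their median log2 fold change was -0.16. Among the 10 ligands of the family tested, 0 were called. GDF11, the closest relative of myostatin, had 35.1, 17.7 and 23.6 normalized counts in QHMM and 6.66, 2.16 and 9.04 in STH, with no overlap. Its counts before normalization were few, at 39, 15 and 23 in QHMM and 8, 2 and 8 in STH. The log2 fold change of GDF11 was -2.08 (SE 0.55), with an edgeR FDR of 0.0680. TGFB2 had means of 128 ± 17.0 and 55.8 ± 17.2 (SD, n = 3 each), a log2 fold change of -1.19 (edgeR FDR = 0.0548). The ratio of MSTN to GDF11 was 2.77, 1.33 and 7.07 in QHMM and 8.51, 41.9 and 2.70 in STH, which overlapped (exact permutation p = 0.3). Its STH values rest on 2 to 8 GDF11 reads per library.

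Of the 10 genes of ligand processing and latency 0 were called. FURIN, a protease that cleaves the precursors of TGF-β family proteins, had a log2 fold change of 1.13 (edgeR FDR = 0.0782), and BMP1, which frees myostatin from its latent complex, had -1.07 (FDR = 0.126). Of 7 ligand-binding inhibitors 0 were called, the smallest p-values being those of the co-receptors TGFBR3 (1.09, FDR = 0.117) and ENG (-0.41, FDR = 0.377). Among 8 other receptors 0 were called and 4 did not overlap, all lower in STH, where 24.7% of all genes did not overlap and 11.7% were lower. ACVR1B, the type I receptor of myostatin, had 89.1, 104 and 131 normalized counts in QHMM and 87.4, 58.2 and 72.3 in STH, a log2 fold change of -0.57 (SE 0.28, edgeR FDR = 0.294). The BMP receptors BMPR1A (-1.09, FDR = 0.0756) and ACVR1 (-0.69, FDR = 0.184) had the smallest p-values of this list, while the alternative type I receptor TGFBR1 had 0.03 and the type II receptor BMPR2 -0.16. ACVR1C, another type I receptor, had 0 to 8 raw counts and was not tested. Of 16 other SMADs and SMAD regulators 0 were called. The SMADs of the BMP branch had log2 fold changes of 0.09 (SMAD1), -0.16 (SMAD5) and 0.30 (SMAD9), and the smallest p-values belonged to the repressor TGIF1 (1.26, FDR = 0.219) and the deubiquitinase USP15 (-0.43, FDR = 0.434).

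Downstream, 1 of 8 genes listed as targets of SMAD2 and SMAD3 was called, where 3.45% of all genes tested were called. CDKN1A, an inhibitor of the cell cycle that many other signals also induce, rose from 112 ± 58.7 to 546 ± 185 normalized counts (SD, n = 3 each), with a log2 fold change of 2.28 (edgeR FDR = 0.0193). The collagens COL1A1 (-1.30, FDR = 0.113), COL1A2 (-1.38, FDR = 0.0789) and COL3A1 (-1.22, FDR = 0.105) did not overlap between the breeds and were not called. Of all genes tested, 11.7% were lower in STH without overlap. These 3 collagens are also among the 7 fibroblast markers, whose summed level was given above, and 4 of 5 adipocyte markers were called lower in STH. The part of either in the values of the collagens and of the myogenic factors was not tested. Of 4 BMP targets 0 were called, with ID3 at 0.35 and ID2 at 0.21. Of 5 myogenic factors 2 were called, against the same 3.45% of all genes tested. MYF6 rose from 1710.3 ± 161 to 4560 ± 474, a log2 fold change of 1.41 (edgeR FDR = 0.0123), and MYOD1 fell from 235 ± 78.8 to 37.6 ± 31.4, a log2 fold change of -2.61 (edgeR FDR = 0.0292). MYOG, which acts after MYOD1 in differentiation, had -1.76 (FDR = 0.0550) and was called in 5 of 18 alternatives. The paper lists MYOD1 and MYOG as lower and MYF6 as higher in STH. MYOD1 was no longer called with robust dispersions (edgeR FDR = 0.0512), without QHMM replicate 1 (0.0546), 2 (0.0844) or 3 (0.0672), or without STH replicate 3 (0.0713). It was also not called with limma-trend on log2(RPKM + 1) and no filter (FDR = 0.0934). With at least 10 counts required in every library it was not tested. CDKN1A was not called without QHMM replicate 2 (edgeR FDR = 0.0558) or in that limma-trend fit (FDR = 0.0558). In both of these fits MYF6 was the single call of all the pathway genes. Without STH replicate 1 there were 6 calls, where 4.21% of all genes were called. With both libraries that stood apart left out, 0 of the 3 called genes were called, at log2 fold changes of 2.09 for CDKN1A, 1.32 for MYF6 and -2.20 for MYOD1.

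**Figure D5:**
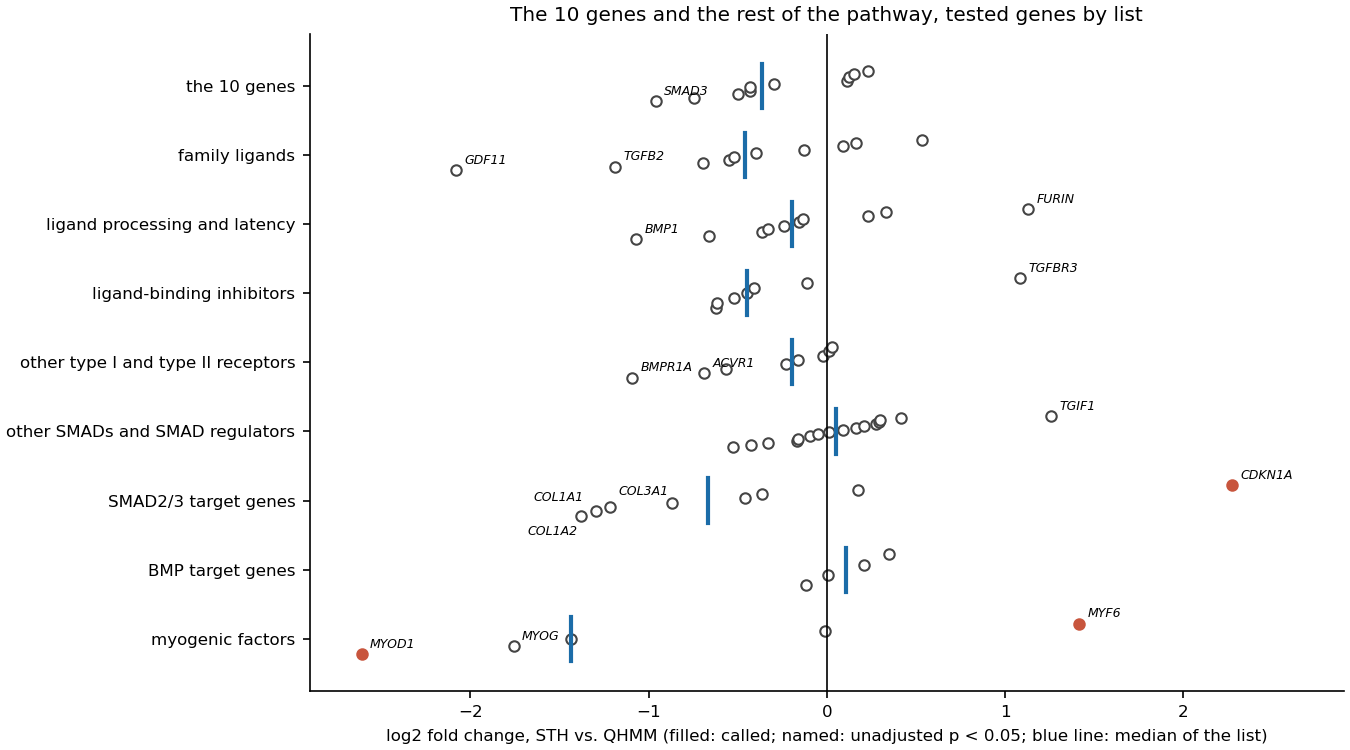
The x axis gives the log2 fold change, STH vs. QHMM, and each row 1 list of pathway genes, with a circle per tested gene, filled where called, and a blue line at the median of the list. Names mark genes with an unadjusted p below 0.05 in edgeR. The filled circles are CDKN1A (2.28), MYF6 (1.41) and MYOD1 (-2.61).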

How the data were processed

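The authors filtered the Ion Proton reads and mapped them to Oar 3.1, a sheep genome build. Reads with a unique position were counted per gene, and the authors deposited these raw counts. RPKM values, made by the authors from the counts, gene lengths and library totals, were deposited beside them. The aligner, counter, annotation release and use of strand are not given in the sources used here. All 12 per-sample columns were used, and 25 genes whose names differ in the RPKM table were dropped in joining the tables.

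Counts were tested in R 4.3.3 with edgeR 4.0.16 (TMM, filterByExpr, glmQLFit and glmQLFTest, breed as the only term), with Benjamini-Hochberg adjustment over 12506 genes. The thresholds are those of the paper. EBSeq, its program, was not installed. SEs were derived from the log2 fold change and its F statistic. DESeq2 1.42.0 and limma-trend (limma 3.58.1) on log2(RPKM + 1) and log2(RPKM + 0.1) were alternatives, as were other size factors, filters, thresholds and sets of libraries. The limma fits used genes that reached an RPKM of 1 in 3 or more libraries, or all genes with a value above 0. Exact permutation tests and plots used SciPy 1.17.1, NumPy 2.4.6, matplotlib 3.10.9 and pandas 2.3.3 (Python 3.11.15). Scripts were tested on simulated counts.

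Library totals were 10982191 to 14334544 (median 13044142), and genes with few reads, such as FSTL3 and SMAD6, carry wide intervals. The edgeR p-values and intervals rest on 3 animals per breed, with the variance of each gene drawn toward that of other genes. They are thus not a measure of the spread of that gene's animals alone. The SE of MSTN, 0.60, was 0.71 with robust dispersions. The sign-flip p-values of the order of levels rest on the 6 libraries of both breeds. The members and gene lists were chosen with earlier results of these data known. Named are the 10 genes, GDF11, SMAD1, SMAD5, SMAD9, ACVR1B, ACVR1C, TGFBR1 and BMPR2, every called gene of the pathway lists, the 2 genes of each list with the smallest p, and the 5 genes most like MSTN and SMAD3. COL1A1, COL3A1 and MYOG were added after their values had been seen, as were PMS1 and AAGAB for their overlap. TGIF2 of the lists and the markers MYH1, MYH2, TEK, CD163 and HBB were not analysed here.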

Additional observations from a re-analysis of the deposited data

How the results depend on the processing

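In the report 0 of the 10 genes were called. SMAD3 alone (1 gene) was called with DESeq2, with no filter on low counts and without STH replicate 1, and 0 were called in the other 17 of 20 alternatives, so fits without 1 replicate ranged from 0 to 1. Of the other pathway genes 3 were called, where 3.45% of all genes were. There were 13 with DESeq2 (7.78% of all genes) and 11 with no filter (4.56%). There was 1 with limma-trend on log2(RPKM + 1) and no filter, 0 at an FDR of 0.01, and 0 without QHMM replicate 2 and STH replicate 3 together. Fits without 1 replicate gave 1 to 6, the 6 being without STH replicate 1 (4.21%). The share of all genes called is not given for the other fits. Of the named pathway genes not called in the main fit, MYOG was called in 5 of 18 alternatives and TGFB2 in 4. FURIN, COL1A1, COL1A2 and COL3A1 were each called in 3, BMPR1A in 2, and BMP1 and TGFBR3 in 1. GDF11 was called in 2 of 17. SMAD3 stayed negative in 18 of 18 alternatives, as did MSTN, FST, SMAD2 and SMAD7, and SMAD4 stayed positive. The log2 fold change of SMAD3 was -0.98 with DESeq2 and -0.98 with no filter, and -1.35 to -0.80 without 1 replicate. FSTL3 had 17 alternatives and SMAD6 15, since stricter filters left them out. Without 1 replicate, the log2 fold change of MSTN ranged from -1.25 to -0.09. The sign turned for FSTL3 (-0.50 without both libraries, and -0.25 to 0.81 without 1 replicate), ACVR2A (-0.20 to 0.45), ACVR2B (-0.023 to 0.33) and SMAD6 (-0.86 to 0.20), none of which was called. Among other named genes it turned, also with no call, for SMAD1 (-0.092 without both libraries, -0.091 to 0.28 without 1 replicate), SMAD5 (-0.56 to 0.16), SMAD9 (-0.80 to 0.76), TGFBR1 (-0.0029 with at least 10 counts in every library, -0.24 to 0.34 without 1 replicate), BMPR2 (-0.40 to 0.025) and ID2 (-0.073 to 0.51). The cause of these changes was not tested, beyond the fewer libraries or other genes in each fit. Limma-trend on log2(RPKM + 0.1) moved the median log2 fold change of all genes by 0.11, and no member changed sign in it. Ranked without gene length, 3 of 10 genes kept their place in the order of levels, and 8 kept it with medians.

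Replicate numbers are shared by the breeds, but the deviations of same-numbered animals correlated at 0.23, -0.04 and -0.13, so they were not taken as pairs, and QHMM replicate 2 correlated best with STH replicate 3 (0.29). With the replicate block 0 members and 7 other pathway genes were called. The share of all genes called in that fit is not given, so these counts cannot be set against it. TGFBR1 had a log2 fold change of -0.057 with the block. Among the 10 genes FSTL3 and SMAD6, with few reads, and MSTN had the widest intervals (SE 0.63, 0.61 and 0.60).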
